A study of Rattus norvegicus with 30 samples.

Results

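A set of 200 rat genes that were nearly silent in tube-grown nerve tissue 7 days after surgery, and had come back in part by day 21, was followed through 30 libraries. Levels were expressed as log2(CPM + 1), where CPM is the count scaled to a library of 1000000 counts, and averaged within each group. A gene was taken when its level lay at least 2.5 below healthy nerve at day 7, rose by at least 1 from day 7 to day 21 and still lay at least 1 below healthy nerve at day 21, each in both repairs. Of the 32545 genes listed, 1221 met the day 7 criterion, 861 of these had also risen, and 540 met the whole rule. The 200 with the lowest mean day 7 difference were kept. The loss at day 7, the rise to day 21 and the remaining deficit at day 21 are therefore how the genes were chosen, and are given without a test. Day 14 played no part in the choice.

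The control group was healthy, untreated median nerve (CTR_NERVE, labelled Day 0, n = 5). In the other groups the nerve, one of the main nerves of the forelimb, had been cut to leave an 8 mm gap, and a 10 mm tube of chitosan, a polysaccharide derived from chitin, was placed across it. The tube was placed at once in immediate repair (4, 4 and 5 libraries of days 7, 14 and 21) and after 3 months in delayed repair (5, 4 and 3 libraries). All samples came from adult female wild-type rats, and the tissue formed inside the tube was sequenced as a whole. The delayed groups differ from the immediate ones also in the age of the injury, which the design does not separate. In whole tissue, fewer cells of a type and less RNA per cell cannot be told apart. The labels number the replicates without saying that each is a separate animal, so the tests measure the spread between these samples.

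A peripheral nerve holds axons whose cell bodies lie elsewhere, Schwann cells that wrap or accompany them, fibroblasts, a sheath of perineurial cells, blood vessels and resident immune cells. When a nerve is cut, axons beyond the cut degenerate and Schwann cells there leave their mature state. A tube placed across a gap first fills with a fibrin-rich matrix, into which blood vessels, fibroblasts, Schwann cells and then axons grow from the stumps. Genes are listed by Ensembl ID alone, and none of the IDs matched the table of symbols used here. No function, cell type or genome position is therefore given for the 200 genes, no marker list could be read beside them, and single genes are named by ID.

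Total counts per library ranged from 11958242 to 17334752. All 200 genes passed the filter on low counts that left 16015 genes for testing. They could do so through the control libraries alone. In the groups the rule reads, 3 libraries stood apart in these genes: delayed day 7 replicate 5 was high, while immediate day 21 replicate 4 and delayed day 21 replicate 3 were low. Their total counts were 17334752, 15873797 and 14974517, and whether they carry the right labels was not tested. At day 14, delayed replicate 3 lay above its group by a smaller step, and it is kept in the values given without the other 3. The choice of genes rests on the first 3 libraries too: without them, 169 of the 200 still met the rule, and without immediate day 21 replicate 4 alone, 171 did.

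In healthy nerve the 200 genes were abundant. Their control means ran from 42.7 to 15706 CPM with a median of 234 CPM, and together they took 11.3% ± 0.326 (SD, n = 5) of all counts. The gene with the highest control mean supplied 13.9% of that sum, the 2 highest 24.5% and the 10 highest 46.3%. The median coefficient of variation among control libraries was 14.1%, against 10.0% for the 4505 genes with a control mean at least as high as the lowest of the set. A high control level is part of the choice, since a gene can fall by no more than its own control level on this scale.

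At day 7 the 200 genes together took 0.0781%, 0.0489%, 0.0494% and 0.0248% of the counts in immediate replicates 1 to 4. In delayed replicates 1 to 5 they took 0.0397%, 0.0419%, 0.0909%, 0.0969% and 0.560%. All 9 values lay below the 10.97% to 11.7% of the control libraries, and delayed replicate 5 was the highest of them. The median gene measured 0.521 CPM after immediate and 2.00 CPM after delayed repair. The mean level was under 1 CPM for 123 genes in immediate and 70 genes in delayed repair, and for 68 in both. Between 35 and 91 of the genes had 0 counts in each immediate library, and between 14 and 56 in each delayed library. A count of 0 allows up to 3 counts, or 0.173 to 0.251 CPM depending on the library, by counting error alone. No gene was at 0 in all 9 libraries.

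**Figure D1:**
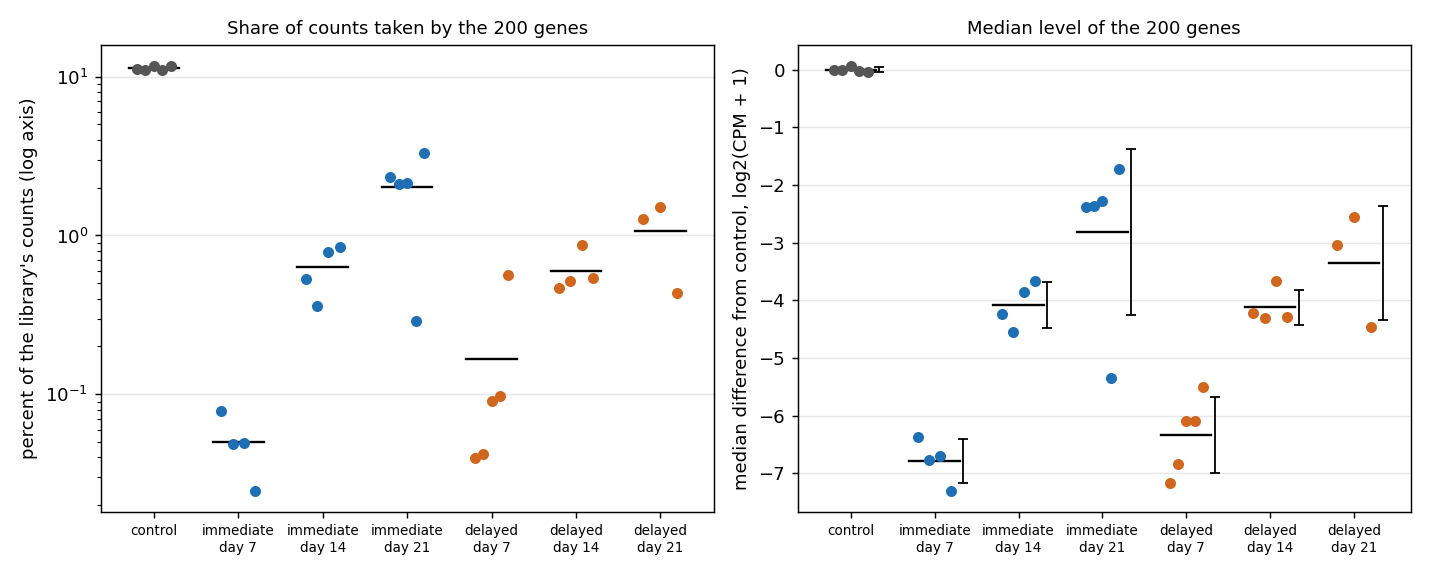
Share of each library's counts taken by the 200 genes (left, percent, log axis) and the median over the 200 genes of the difference from the control mean (right, log2(CPM + 1)), by group. Points are libraries, black lines are group means and the bars on the right are 1 SD; the day 7, 14 and 21 groups step upward without reaching control, with delayed day 7 replicate 5 high at 0.560% and immediate day 21 replicate 4 low at 0.289%.

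Day 14, which the rule did not read, lay between the other days. The set took 0.535%, 0.358%, 0.783% and 0.852% of the counts in immediate replicates 1 to 4 and 0.466%, 0.520%, 0.870% and 0.539% in delayed replicates 1 to 4. These ranges overlapped each other, and all but that of delayed day 7 replicate 5 among the day 7 values lay below both. The median gene stood at -4.08 ± 0.40 (SD of library medians, n = 4) from control after immediate and at -4.12 ± 0.31 (n = 4) after delayed repair, on the log2(CPM + 1) scale. Without delayed replicate 3 the latter was -4.27. In CPM, the median gene was at 5.79% of its control mean after immediate and at 5.72% after delayed repair. All 200 group means lay at least 1 below control in each repair, and 103 and 105 of them lay at least 4 below it. The spread among genes was wide: the differences ran from -8.75 to -1.62 after immediate and from -9.97 to -1.08 after delayed repair.

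At day 21 the set took 2.32%, 2.12%, 2.13%, 0.289% and 3.30% of the counts in immediate replicates 1 to 5, and 1.27%, 1.51% and 0.434% in delayed replicates 1 to 3. The highest of these was still well under the control range. The median gene was at 19.0% of its control mean after immediate and at 11.3% after delayed repair, or at 22.2% without immediate replicate 4 and 13.9% without delayed replicate 3. Of the 200 genes, 148 in immediate and 172 in delayed repair were at least 2 below control on the log2 scale, and 39 and 79 were at least 4 below. Within 1 of control in single libraries lay 27, 32, 22, 3 and 63 genes in immediate replicates 1 to 5 and 8, 20 and 0 genes in delayed replicates 1 to 3.

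How much each gene had regained by day 14 differed widely within the set. From day 7 to day 14 the level rose by a median of 2.74 (quartiles 1.54 and 3.90) after immediate repair. After delayed repair it rose by 2.16 (quartiles 1.11 and 3.08), with high delayed day 7 replicate 5 included. This rise was not computed without that library. The median day 7 difference of delayed from immediate repair was 0.42 with all libraries and 0.15 without those that stand apart. From day 14 to day 21 the level rose by a median of 1.22 and 0.76. It rose by 1.84 without immediate day 21 replicate 4 and by 1.29 without delayed day 21 replicate 3. The earlier interval brought the larger rise for 143 genes in immediate and 148 in delayed repair, and for 135 in both. At the other end, 25 genes in immediate and 45 in delayed repair rose by less than 1 to day 14. At day 14, 8 genes of immediate and 35 of delayed repair lay above their own day 21 mean. The counts that use day 21 include low immediate replicate 4 and low delayed replicate 3, and were not made without them.

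**Figure D2:**
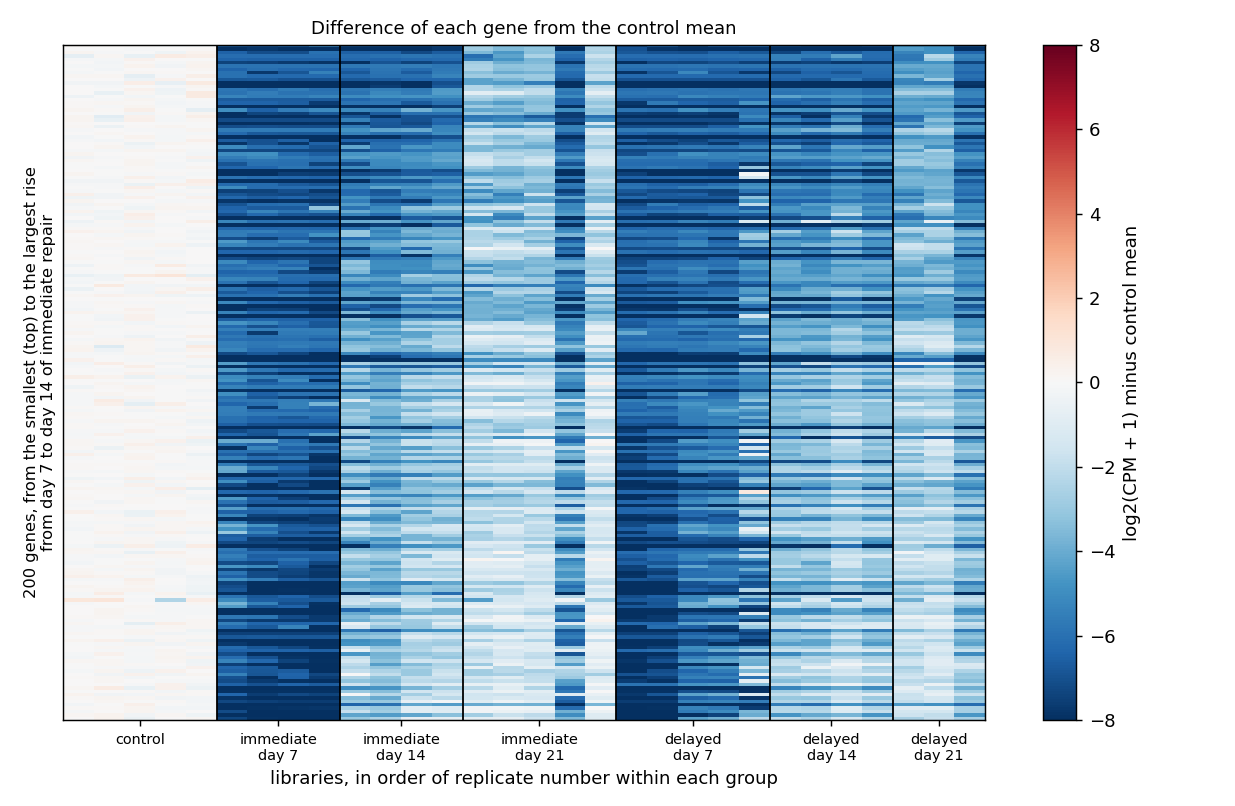
Difference of each of the 200 genes (rows) from its control mean in each of the 30 libraries (columns), in log2(CPM + 1), with colours limited to 8 in either direction. Rows run from the smallest to the largest rise from day 7 to day 14 of immediate repair: rows near the top stay dark at day 14 in both repairs, rows near the bottom lighten there, and immediate day 21 replicate 4 is darker than its group.

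Genes with a larger rise from day 7 to day 14 in one repair also had a larger rise in the other. The repairs share no library in this measure. Across the 200 genes, which are not independent replicates, the rise from day 7 to day 14 in immediate and in delayed repair correlated at a Pearson r of 0.893 and a Spearman rho of 0.904. The rise from day 14 to day 21 correlated at 0.845 and 0.793. Within each repair the day 14 libraries enter both intervals, and all 200 genes were chosen to rise by day 21 in both repairs.

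**Figure D3:**
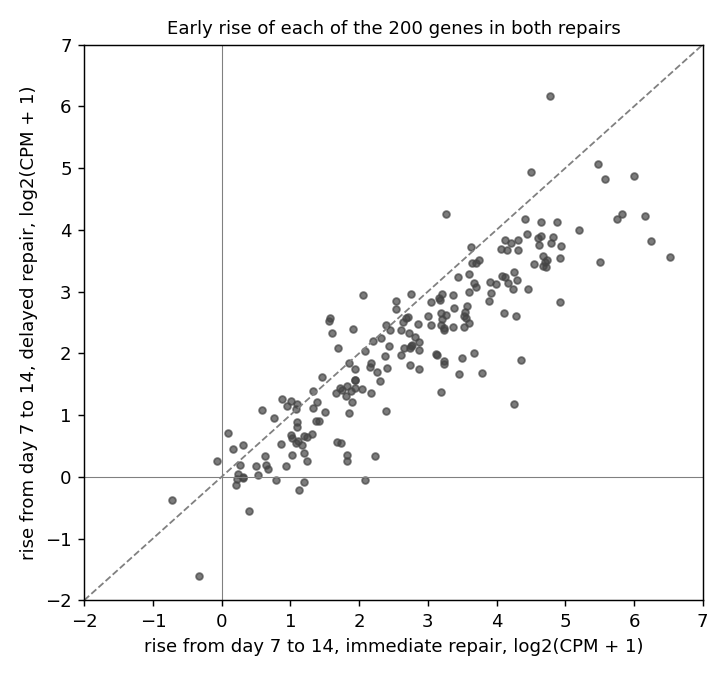
Rise of each of the 200 genes from day 7 to day 14 in immediate (horizontal axis) and delayed repair (vertical axis), both in log2(CPM + 1), with the dashed line marking equal rises. Genes spread from no rise to more than 4 in both repairs and follow one course, mostly below the line of equal rises (Pearson r of 0.893). High delayed day 7 replicate 5 is included in the delayed rises.

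To describe genes with small and large early rises in libraries other than those used to sort them, 1 repair was used for sorting. The genes were sorted by the rise to day 14 in that repair and read in the other. The 50 genes with the smallest rise in immediate repair (-0.72 to 1.50) rose in delayed repair by a median of 0.52 to day 14 and a further 1.23 to day 21 (1.92 without delayed day 21 replicate 3). Their median level after delayed repair was 0.782 CPM at day 7, 1.62 CPM at day 14 and 6.61 CPM at day 21, or 0.311%, 0.806% and 4.26% of the control mean. The 50 genes with the largest rise in immediate repair (3.91 to 6.53) rose in delayed repair by a median of 3.68 to day 14 and a further 0.45 to day 21 (0.83 without it). Their median level after delayed repair was 4.27 CPM, 56.3 CPM and 77.3 CPM on the 3 days, or 1.34%, 16.6% and 24.3% of the control mean. Below, the 50 with the smallest rise are called late genes and the 50 with the largest early genes. These names stand for the size of the rise, not for the share of the control level regained. ENSRNOG00000048273, among the 50 largest rises in immediate repair, was still at 1.71% of its control mean there at day 14.

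The library medians separated late from early genes at day 14 and not at day 7. In delayed repair the 50 late genes stood at -6.50 ± 0.32 (SD, n = 5) at day 7 and the 50 early genes at -6.53 ± 1.10 (n = 5), with overlapping ranges. At day 14 they stood at -6.00 ± 0.32 (n = 4) and -2.63 ± 0.50 (n = 4), and the ranges over the 4 libraries did not overlap. At day 21 they stood at -4.69 ± 1.09 (n = 3) and -2.15 ± 0.75 (n = 3). Sorting in delayed and reading in immediate repair gave -5.98 ± 0.32 (n = 4) for the late and -2.64 ± 0.53 (n = 4) for the early genes at day 14. The day 21 values were -3.63 ± 1.64 (n = 5) for the late and -1.89 ± 1.51 (n = 5) for the early genes. In that direction, late genes rose by a median of 1.03 to day 14 and a further 2.49 to day 21 (3.22 without immediate day 21 replicate 4). Early genes rose by 4.58 and 0.72 (1.41 without it). The repairs shared 42 of 50 late and 42 of 50 early genes, and no gene was late in one and early in the other. Early genes were the more abundant in healthy nerve, with a median control mean of 303 CPM against 153 CPM when sorted in immediate repair. All 200 group means lay below control at day 14, so the control level capped the rise. The difference in abundance is therefore in part built into the sort. The log2(CPM + 1) scale compresses rises near 0 CPM, so small rises of late genes are understated.

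**Figure D4:**
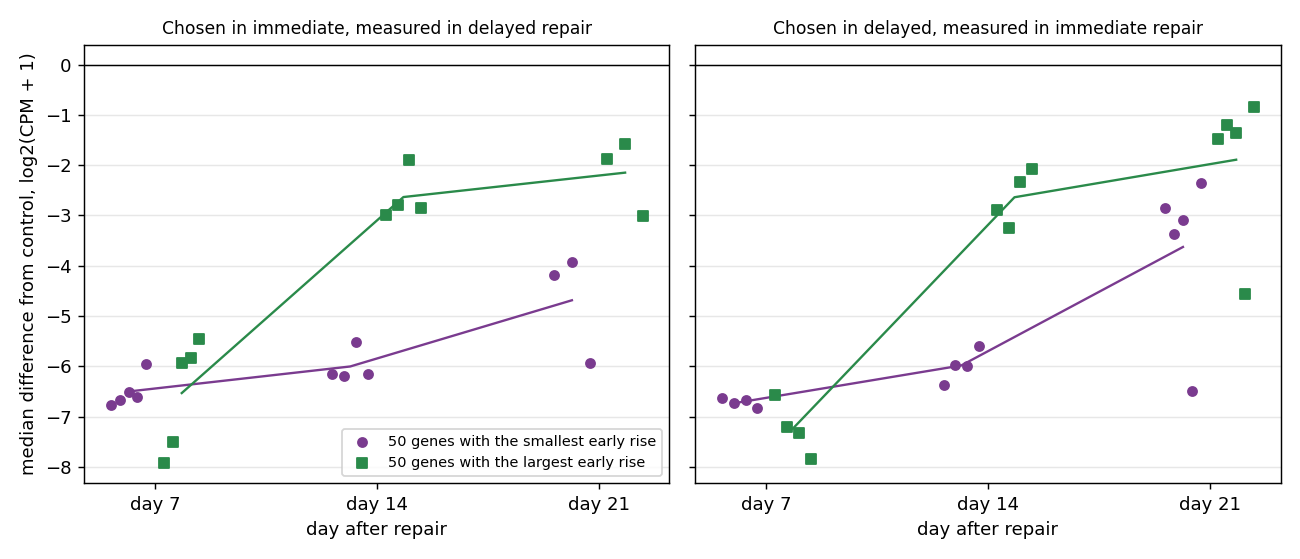
Median difference from the control mean, in log2(CPM + 1), of the 50 genes with the smallest and the 50 with the largest rise from day 7 to day 14, by day after repair, with the genes sorted in one repair and read in the other. Points are libraries and lines join group means; they overlap at day 7 and are apart at day 14, at -6.00 and -2.63 in delayed repair and -5.98 and -2.64 in immediate repair.

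Single genes show these courses. ENSRNOG00000026704 had the lowest mean day 7 difference, at -11.13. It measured 4263, 3267, 3011, 3564 and 3074 CPM in control replicates 1 to 5. At day 7 it measured 1.31, 0.222, 0.258 and 0.251 CPM in immediate replicates 1 to 4 and 0.0821, 0, 1.34, 1.15 and 0.923 CPM in delayed replicates 1 to 5. All 9 day 7 libraries lay at 1.34 CPM or less and all 5 control libraries at 3011 CPM or more. At day 14 it was at 8.07 ± 2.08 CPM (SD, n = 4) after immediate and 7.40 ± 1.49 CPM (n = 4) after delayed repair, with overlapping groups. At day 21 it measured 104.6, 95.3, 96.5, 3.34 and 176 CPM in immediate replicates 1 to 5, and 38.4, 39.5 and 5.94 CPM in delayed replicates 1 to 3. Immediate replicate 4 and delayed replicate 3 held the lowest value of each group.

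ENSRNOG00000048273, the next lowest at -11.02, returned unevenly across libraries. It measured 2207, 3659, 2205, 2914 and 1565 CPM in control replicates 1 to 5. At day 7 it lay between 0 and 0.374 CPM in the immediate and between 0 and 0.865 CPM in the delayed libraries. At day 14 it measured 1.17, 24.0, 113.6 and 32.8 CPM in immediate replicates 1 to 4 and 0.712, 1.03, 5.61 and 1.44 CPM in delayed replicates 1 to 4. The groups overlapped, and the log2 difference of delayed from immediate repair was -4.30 (SE 1.33, edgeR quasi-likelihood adjusted p = 1). At day 21 it measured 1032, 454, 929.6, 1.20 and 1126 CPM in immediate replicates 1 to 5 and 197, 168 and 1.34 CPM in delayed replicates 1 to 3. Apart from immediate replicate 4, the immediate libraries lay above all delayed ones.

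The 2 genes that had regained the largest share of their loss by day 14, averaged over the repairs, were ENSRNOG00000003183 and ENSRNOG00000025120. ENSRNOG00000003183 was at 161 ± 32.6 CPM (SD, n = 5) in control nerve and at 1.00 ± 1.25 CPM (n = 4) at day 7 of immediate repair. In delayed repair at day 7 it measured 0.246, 0.344, 1.72, 1.22 and 93.8 CPM in replicates 1 to 5, so that replicate 5 alone stood near the day 14 level. At day 14 it measured 152, 39.8, 19.5 and 55.4 CPM in immediate replicates 1 to 4 and 69.3, 55.6, 63.5 and 87.0 CPM in delayed replicates 1 to 4. At day 21 it was lower, at 26.3 ± 5.93 CPM (n = 5) and 48.7 ± 33.7 CPM (n = 3). ENSRNOG00000025120 went from 124 ± 19.2 CPM (n = 5) in control to 0.269 ± 0.197 CPM (n = 4) at day 7, 42.4 ± 21.5 CPM (n = 4) at day 14 and 71.4 ± 40.8 CPM (n = 5) at day 21 of immediate repair. After delayed repair it was at 3.92 ± 3.58 CPM (n = 5), 56.7 ± 25.6 CPM (n = 4) and 51.0 ± 33.6 CPM (n = 3).

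Delayed and immediate repair were compared at each day, asking whether the wait of 3 months went with another level of these genes. Tests were run on counts over all 16015 genes with the edgeR quasi-likelihood test and Benjamini-Hochberg adjustment, at a threshold of 0.05. At day 14, in libraries the rule did not read, 0 of the 200 genes were called, where 0% of all tested genes were called. The spread of each gene came from all 30 libraries, however, among them those the rule read. Filtered on the day 14 libraries alone, 188 of the 200 genes had enough counts for a test, and 0 were called. The others entered through groups where they are high, so the shares below are not read as a result. DESeq2 and limma voom with sample quality weights also called 0 of the 200, beside 8 of 15828 and 2 of 16015 tested genes. Before adjustment, edgeR gave p under 0.05 for 9 genes, or 4.5% of the set against 1.52% of all tested genes. All 9 were lower after delayed repair, where 0.918% of all tested genes were. The 9 became 2 without immediate day 14 replicate 4, 20 without immediate day 21 replicate 4 and 16 with DESeq2, in either direction. They became 17 of the 188 genes tested when only the day 14 libraries were fitted, and 31 without the 3 libraries that stand apart. The libraries of the repairs did not overlap in 5 of the 200 genes, or 2.5% against 1.83% of all tested genes. The median log2 difference was -0.14 (quartiles -0.61 and 0.21), beside -0.01 over all tested genes, and it was below 0 for 128 genes, or 64% against 51%. Leaving out 1 day 14 library at a time, the median ran from -0.39 without delayed replicate 3 to 0.01 without immediate replicate 4, so its direction rested on the latter. The 95% interval of the difference reached 1.59 to either side in the median gene, and it extended past a 2-fold change for all 200 genes. Differences of that size were therefore not excluded.

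At day 7, 13 of the 200 genes were higher after delayed repair and none lower. The edgeR adjusted p was 0.0302 for ENSRNOG00000012302 and between 0.0491 and 0.0497, just under the threshold, for the others. Of all tested genes, 0.712% were called, 0.693% as higher and 0.0187% as lower. The rule held both groups far below control but did not read their difference. The log2 differences of the 13 ran from 2.95 to 9.23 with a median of 6.07 (median SE 1.10), and the libraries did not overlap in 3 of them. Over the whole set the libraries did not overlap in 4 of the 200 genes, or 2% against 0.362% of all tested genes. Before adjustment, 73 genes of the set had p under 0.05, or 36.5% against 8.44% of all tested genes. Filtered on the day 7 libraries alone, 113 of the 200 genes had enough counts for a test, and the others entered through groups where they are high, so these shares are not read as a result. The median of the 13 called genes was 0.164, 0.412, 1.79, 2.44 and 84.1 CPM in delayed replicates 1 to 5, and 0.249, 0.0739, 0.193 and 0.0836 CPM in immediate replicates 1 to 4. Delayed replicate 5 held the highest value of 12 of the 13. ENSRNOG00000025120 was among them, with a log2 difference of 3.81 (SE 0.88, edgeR adjusted p = 0.0491).

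The fit gives all groups 1 estimate of spread per gene, while the libraries of the set were far more spread at day 7 than in control nerve: the median coefficient of variation was 98.9% in immediate and 107% in delayed repair. The day 7 calls rested on single libraries. Without delayed replicate 5 none of the 200 genes was called and the median log2 difference of the set went from 1.38 to 0.41, while the genes with an unadjusted p under 0.05 went from 73 to 32. These numbered 34 with the replicate number as a block and 6 with limma voom. Without delayed replicate 1, 2 or 3 the count was 28, 28 or 22, beside 360, 320 or 232 of all tested genes. It was 0 without any 1 of the 4 immediate libraries. Without any 1 of the 21 libraries outside the comparison, controls included, it was 1 or 2, beside 6 to 17 of all tested genes. With the block it was 0. Of the 200 genes, 110 had their highest day 7 value in delayed replicate 5, and 7 lay within 1 of the control mean there, against none in the other 8 day 7 libraries.

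At day 21 no gene of the set was called by edgeR, DESeq2 or limma voom, where edgeR called 0.05% of all tested genes. DESeq2 called 58 of 15828 and limma voom 58 of 16015 tested genes. The rule read both day 21 groups and held each below control, but did not read their difference. The shares below come from values used to choose the genes, and are not read as a result. Before adjustment, 22 genes had an edgeR p under 0.05, or 11% of the set against 5.69% of all tested genes. Of these, 21 were lower after delayed repair, or 10.5% against 2.7%. The 22 became 4 without delayed replicate 3, 51 without immediate replicate 4, 11 and 10 without immediate replicates 1 and 5, 9 with the replicate block and 47 with limma voom. The fitted difference was below 0 for 179 of the 200 genes, or 89.5% against 52.9% of all tested genes. On the log2(CPM + 1) scale with column sums it was 88.5% against 66.1%. The median fitted difference was -0.70, and it was -0.35 without delayed replicate 3, -1.03 without delayed replicate 2, -0.96 without immediate replicate 4 and -0.47 without immediate replicate 5. The 95% interval reached 1.63 to either side in the median gene. The libraries did not overlap in 2 genes, or 1% against 6.25% of all tested genes. Without immediate replicate 4, 2 genes were called, both lower after delayed repair, beside 7 of all tested genes in either direction. Since the 200 genes move together, their count in one direction is not that of independent genes. Whether the difference between the repairs changed from day 7 to day 21 was not tested.

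The libraries of day 21 fell into unlike levels within their own groups. Over the 200 genes the median difference from control was -2.38, -2.36, -2.28, -5.34 and -1.71 in immediate replicates 1 to 5 and -3.04, -2.56 and -4.46 in delayed replicates 1 to 3. Immediate replicate 4 held the lowest value of its group in 177 genes and lay below the day 14 mean of immediate repair in 169. Delayed replicate 3 was the lowest of its group in 174 genes and lay below the day 14 mean of delayed repair in 143. By the median absolute difference over the 200 genes, immediate replicate 4 was 0.97 from the day 14 and 3.16 from the day 21 mean of its own repair without itself. It was 0.86 from the delayed day 14 mean, and 1.04 and 1.50 from the delayed and immediate day 7 means. Its median difference of -5.34 lay below that of every day 14 library, the lowest of which was at -4.56. Delayed replicate 3 was 0.41 from the day 14 and 1.57 from the day 21 mean of its repair. The other 4 immediate libraries lay between 1.63 and 2.37 from the day 14 and between 0.63 and 1.39 from the day 21 mean. Delayed replicates 1 and 2 were nearest to the immediate day 21 mean, at 0.39 and 0.42, and were 0.82 and 1.04 from the delayed day 21 mean without themselves. The delayed mean then rests on low replicate 3 and 1 other library, and the immediate mean includes low replicate 4. Whether this nearness holds without the low libraries was not tested. The late genes sorted in delayed repair stood at -6.48 in immediate replicate 4, against -3.37 to -2.35 in the other 4 immediate libraries. Without the low libraries the group medians were -2.18 ± 0.32 (SD, n = 4) after immediate and -2.80 ± 0.34 (n = 2) after delayed repair, in place of -2.81 ± 1.44 (n = 5) and -3.35 ± 0.99 (n = 3).

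**Figure D5:**
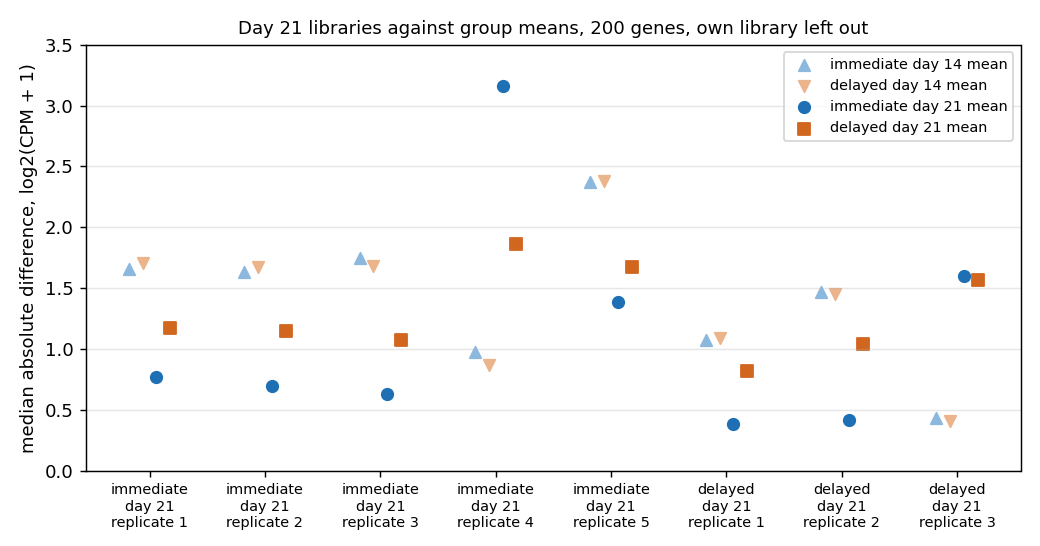
Median absolute difference over the 200 genes, in log2(CPM + 1), between each day 21 library (horizontal axis) and the day 14 and day 21 means of each repair, leaving the library itself out of its mean. Immediate replicate 4 and delayed replicate 3 lie nearer to the day 14 means than to the day 21 means, and the other 6 libraries lie nearer to the day 21 means. Distances to the day 7 means are not drawn.

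The 200 genes were compared, as a description, with other genes lost at day 7. The 340 genes that met the rule but ranked lower had a median control mean of 45.9 CPM and stood at a median of -4.23 at day 7 of immediate repair, -2.18 at day 14 and -1.61 at day 21. After delayed repair they stood at -3.87, -2.07 and -1.93. They moved in the same order of days at a smaller loss. The 321 genes that had risen to within 1 of control in at least 1 repair stood at -0.70 at day 14 of immediate and -0.58 of delayed repair. The 360 that had not risen by 1 in both repairs stood at -3.10 and -3.08. Both started from a smaller loss: at day 7 the 321 stood at -3.76 and -3.14 and the 360 at -3.49 and -3.25. The 200 genes stood at -6.64 and -6.14 there. Median control means were 50.5 CPM for the 321 and 27.0 CPM for the 360, against 234 CPM for the 200. The day 14 levels are therefore not compared between the sets. At the edge of the set, the mean day 7 difference was -5.31 to -5.29 for the last 5 genes inside and -5.29 to -5.28 for the next 5 outside. Among genes as low at day 7 as the set, 18 missed the day 21 threshold, the nearest at -0.95 where the last inside was at -1.06. Another 34 missed the rise threshold, the nearest at 0.98 where the first inside was at 1.12.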

How the data were processed

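RNA was sequenced from 30 libraries made by poly(T) capture from 400 ng of total RNA, without strand marking, per the labels' protocols, so counts of overlapping genes may include each other's reads. The deposited table holds raw counts per gene, not normalized by the authors. DESeq2 1.38.3, featureCounts 1.5.0-p3 and HISAT2 2.0.5 are named, without roles, per the submitters' processing notes. Genome build and annotation: not given in the sources used here. Groups and replicates were read from titles, and columns were matched by library name.

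The members and lists were chosen with earlier results of these data known, and 1 gene named in the rule was left out and is not reported here. CPM used column sums, and 1 was added before taking log2. The tests used edgeR 4.0.16 under R 4.3.3 (filterByExpr, TMM, robust quasi-likelihood fit of 7 groups), and the test was checked on simulated data. DESeq2 1.42.0 and limma 3.58.1 were alternatives. Standard errors came from the test statistic. Among 51 replicate pairs the chi-square was at least 14.9 per degree of freedom, above sampling noise. Counting intervals and floors cover counting error only. The rule for named genes, which called for symbols, was reduced after the data were seen to the 2 lowest day 7 differences and the 2 largest shares regained at day 14. Symbol lists and promoter motifs were not analysed here, as 0 IDs matched. TMM scaling, in place of column sums, moved a group's difference from control by -0.18 to 0.01 in the median tested gene.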

Additional observations from a re-analysis of the deposited data

Results flagged for a closer look

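Several measures were checked in each group of 4 or 5 libraries for a library set far from the others. Of 36 such checks, 8 found one, where chance gives about 1 in 20 for independent, normally spread values. The checks reuse the same libraries and are not independent, and some read values near 0 CPM. The share of counts taken by the 200 genes was 0.560% in delayed day 7 replicate 5, against 0.0397% to 0.0969% in the other 4 libraries. The median difference from control was -5.34 in immediate day 21 replicate 4, against -2.38 to -1.71 in the other 4, and -3.66 in delayed day 14 replicate 3, against -4.31 to -4.22 in the other 3.

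Among the named genes, ENSRNOG00000003183 measured 93.8 CPM in delayed day 7 replicate 5, against 0.246 to 1.72 CPM, and 36.5 CPM in immediate day 21 replicate 3, against 21.9 to 25.8 CPM. ENSRNOG00000048273 measured 0.865 CPM in delayed day 7 replicate 5, against 0 to 0.192 CPM, and 5.61 CPM in delayed day 14 replicate 3, against 0.712 to 1.44 CPM. ENSRNOG00000026704 measured 1.31 CPM in immediate day 7 replicate 1, against 0.222 to 0.258 CPM. Delayed day 21, with 3 libraries, was not checked.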

How the results depend on the processing

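The count of 13 genes of the set that differed between the repairs at day 7 moved with nearly every setting. It was 1 without the filter on low counts (7 of all 24297 tested genes) and 1 with relative log expression factors (15 of 16015). It was 0 of the 113 genes left for testing when only the day 7 libraries were fitted. With DESeq2 it was 41 (341 of 15828), and with limma voom and sample quality weights 0 (0 of 16015). It was 0 (1 of 16291) without the 3 libraries that stand apart, a setting chosen after seeing the data. Leaving out 1 library at a time gave 0 to 28. The cause was not tested. At day 14 the count stayed at 0 in all of these settings, and at day 21 it was 0 except without immediate replicate 4, with a range of 0 to 2.

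With the replicate block, the counts were 0 at day 7, 0 at day 14 and 0 at day 21. The numbers were not shown to pair the samples: deviations of same-numbered libraries from their group means correlated at -0.66 to -0.11 at day 7, 0.084 to 0.41 at day 14 and -0.074 to -0.023 at day 21. Between 449 and 592 genes met the rule without 1 of the libraries it reads, 569 with TMM-scaled library sizes and 658 with 0.5 in place of 1 added before log2. The median difference at day 14 moved by less than its SD under every alternative run, to -4.21 and -4.25 with TMM-scaled sizes. Lists of genes by symbol against control were not run, for want of symbols. At day 7, levels under 1 CPM leave the size of the loss set mostly by the control level.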
